A study of Sus scrofa with 13 samples.

Results

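The 10 genes RUNX2, SP7, ALPL, SPP1, BMP2, BMP4, BMP6, BMPR1A, BMPR1B and BMPR2 form a core of bone formation and bone morphogenetic protein (BMP) signalling. They were chosen by gene symbol, and all 10 were found among the 27339 gene rows of the count tables. What was counted at each gene is 5-hydroxymethylcytosine (5hmC), an oxidised form of methylated cytosine in DNA, captured with an antibody and sequenced. The reads come from DNA, so a value is a 5hmC signal at a gene and no measure of its RNA. The 6 hypoxia libraries were made from adipose-derived mesenchymal stem cells held at 1% oxygen for 48 hours, and the 6 normoxia libraries from such cells held at 20% oxygen. All cells of both groups came from the abdominal fat of female domestic pigs given a high-cholesterol diet and a coil-induced stenosis of 1 renal artery, and were expanded in culture before treatment, so neither group is healthy tissue or fresh tissue. Both groups hold 1 library titled with each of the numbers 110, 16, 21, 33, 4 and 49. The labels do not say whether a number is an animal, so p-values reflect only how far these libraries spread, which may be technical.

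Mesenchymal stem cells can become bone, fat or cartilage cells. BMP ligands bind a complex of type I and type II receptors on the cell surface, the type II receptor activates the type I receptor, and this phosphorylates SMAD proteins that enter the nucleus. In cells entering the bone lineage RUNX2 acts first, SP7 acts downstream of it, and ALPL and SPP1 are among the genes that follow. 5hmC is made from methylated cytosine by the oxygen-dependent TET enzymes, and it is known to lie within the bodies of many active genes.

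Depth ran from 15569948 to 27428482 reads a library, and genes took 1.69 to 2.89% of them. Gene reads were lowest in the normoxia library of number 21, with 263578, and highest in the normoxia library of number 4, with 714002. Levels below are CPM, the reads of a gene per 1000000 reads of a TMM-adjusted library. The size of a library here counts only reads in genes with enough reads to test. CPM values are not divided by gene length, so they compare libraries and not genes. Counts this thin set the precision: the 10 genes drew from 0 to 643 reads per library. The question for each gene was whether its 5hmC count differed between hypoxia and normoxia. Of the 11868 genes with enough reads to test, 0% had a Benjamini-Hochberg adjusted p under 0.05 by the quasi-likelihood test of edgeR, and 0.0337% had one with the title number as a block. RUNX2, SP7, SPP1, BMP4, BMPR1A, BMPR1B and BMPR2 were tested, and ALPL, BMP2 and BMP6 had too few reads.

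None of the 7 tested genes passed, with or without the block. An unadjusted p under 0.05 was also reached by 0 of the 7 in both fits, where 2.73% of all tested genes reached it without the block and 7.09% with it. Split by direction, those shares were 0.918% higher and 1.81% lower in hypoxia, and 2.6% and 4.49% in the blocked fit. This excess of lower genes turned with the scaling: with library size in place of TMM, 159 genes were higher and 123 lower, against 109 and 215 with TMM, and with the block 468 were higher and 371 lower, against 308 and 533. DESeq2's Wald test called 0 of the 10 genes and gave 0 of them an unadjusted p under 0.05. At each of the 10 genes the range of the hypoxia libraries overlapped that of the normoxia libraries, and 0.101% of all tested genes had groups that did not overlap. All 7 of the 95% intervals lay within a 2-fold change in either direction, the lowest bound being a log2 fold change of -0.83 and the highest 0.95.

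**Figure D1:**
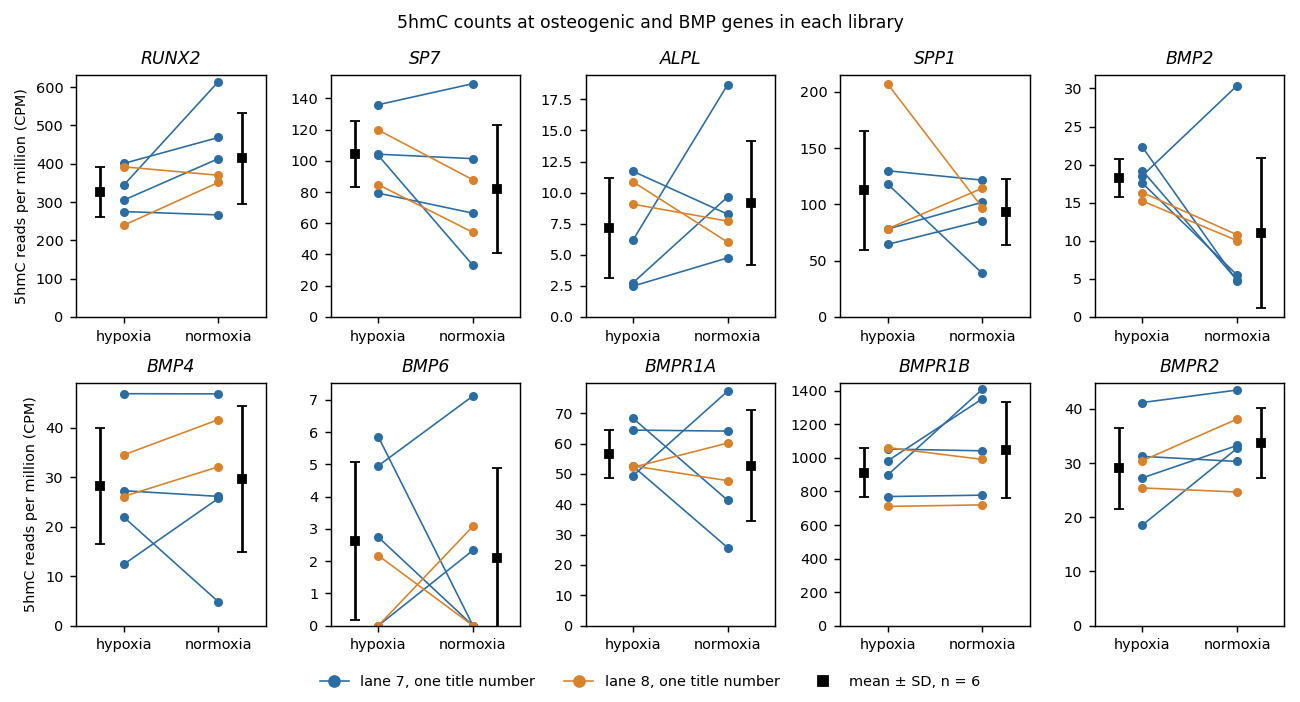
5hmC level in CPM at each of the 10 genes (vertical axes, each from 0), hypoxia at the left and normoxia at the right of each panel. Points are libraries, lines join the 2 libraries of a title number and are coloured by sequencing lane, and squares are means ± SD of 6 libraries (the lower bar of BMP6 is clipped at 0). The groups overlap in every panel, and the 6 hypoxia values of BMP2 lie between 15.2 and 22.3 CPM while its normoxia values run from 4.75 to 30.4.

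RUNX2 is the runt-family transcription factor without which osteoblasts do not form. Its 5hmC level had a lowest value of 239, a median of 324 and a highest value of 401 CPM in hypoxia, against 266, 391 and 614 CPM in normoxia. The 3 highest libraries of all, of numbers 33, 21 and 110, were normoxia libraries, while the lowest, of number 49, was a hypoxia library. RUNX2 averaged 326 ± 64.5 CPM in hypoxia and 414 ± 119 CPM in normoxia (SD, n = 6 each). The log2 fold change was -0.34 ± 0.216 (SE), a ratio of 0.79 with a 95% interval of 0.58 to 1.08, and it did not pass edgeR's test (unadjusted p = 0.13, adjusted p = 1.00). With the title number as a block it was -0.32 ± 0.174 (edgeR unadjusted p = 0.0719, adjusted p = 0.717).

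Within numbers, RUNX2 had the lower level in hypoxia in 4 of 6. The hypoxia level was 0.56 times the normoxia level for number 33, 0.68 times for 49, 0.74 times for 110 and 0.86 times for 21, and 1.03 and 1.06 times for numbers 16 and 4. Number 33 gave the widest gap, and without its normoxia library the log2 fold change was -0.17. Within lane 7 the log2 fold change was -0.39 ± 0.277, and within lane 8, which holds only the 4 libraries of numbers 49 and 4, it was -0.15 ± 0.408. RUNX2 overlaps SUPT3H in RefSeq's gene table of Sscrofa11.1. Reads from DNA cannot be assigned between overlapping genes by strand, and HTSeq sets those it cannot assign aside as ambiguous (at most 0.00948% of reads per library).

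SP7, also called osterix, is the zinc-finger factor that commits precursor cells to the osteoblast fate downstream of RUNX2. Its 5hmC level had a lowest value of 79.3, a median of 104 and a highest value of 136 CPM in hypoxia, against 33.0, 77.2 and 149.5 CPM in normoxia. The normoxia libraries spread on both sides of the hypoxia range: number 16 gave the highest value of all 12 libraries and number 33 the lowest. SP7 averaged 105 ± 21.2 CPM in hypoxia and 82.1 ± 40.9 CPM in normoxia (SD, n = 6 each). The log2 fold change was 0.35 ± 0.290 (SE), a ratio of 1.28 with a 95% interval of 0.84 to 1.94 (edgeR unadjusted p = 0.236, adjusted p = 1.00). With the block it was 0.44 ± 0.217 (edgeR unadjusted p = 0.053, adjusted p = 0.70).

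The hypoxia library of SP7 was the higher in 5 of 6 numbers, as at 11.9% of all tested genes in at least 5 of 6, with 14.3% lower in at least 5 of 6. The ratio of the hypoxia to the normoxia level was 3.13 for number 33, on 53 reads in hypoxia and 12 in normoxia, and 0.91 for number 16, the 1 number below 1. The remaining ratios were 1.57 for number 49, 1.36 for 4, 1.19 for 110 and 1.03 for 21. Without the normoxia library of number 33 the log2 fold change was 0.21, and without that of number 16 it was 0.64. It was 0.28 ± 0.385 within lane 7 and 0.56 ± 0.462 within lane 8. RUNX2 and SP7 thus had log2 fold changes of opposite sign, neither distinguishable from the spread between libraries.

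ALPL encodes the tissue-nonspecific alkaline phosphatase that frees phosphate for mineral deposition and is the usual early stain for osteogenic cells. It drew 20 reads over the hypoxia libraries and 23 over the normoxia libraries, with 1 to 8 per library, too few for the test. Its level had a lowest value of 2.48, a median of 7.63 and a highest value of 11.7 CPM in hypoxia, against 4.75, 7.98 and 18.7 CPM in normoxia. The highest value, in the normoxia library of number 16, stood apart from the other 5. Over all 12 libraries ALPL varied with a coefficient of variation of 54.2%, where counting alone at its mean of reads gives 52.8%. When every gene with a read was fitted, its log2 fold change was -0.24 ± 0.502 (SE), and 0.10 without the normoxia library of number 16.

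SPP1 encodes osteopontin, a phosphorylated matrix glycoprotein of bone that is also secreted by many other cells. Its 5hmC level had a lowest value of 64.4, a median of 98.1 and a highest value of 207 CPM in hypoxia, against 38.6, 99.5 and 121 CPM in normoxia. The hypoxia library of number 4, with 114 reads, was the highest, and the next was the hypoxia library of number 16 at 130 CPM. The lowest was the normoxia library of number 21, with 8 reads. SPP1 averaged 113 ± 52.7 CPM in hypoxia and 93.1 ± 29.6 CPM in normoxia (SD, n = 6 each). Its log2 fold change was 0.25 ± 0.294 (SE), a ratio of 1.19 with a 95% interval of 0.78 to 1.81 (edgeR adjusted p = 1.00). Numbers split evenly, with ratios of 3.05, 2.13 and 1.07 for numbers 21, 4 and 16 and of 0.77, 0.75 and 0.68 for 33, 110 and 49. The sign rested on 1 library: without the hypoxia library of number 4 the log2 fold change was -0.031. It was 0.12 ± 0.364 within lane 7 and 0.49 ± 0.474 within lane 8.

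Few reads fell on the 3 ligand genes. BMP2, a strong inducer of bone, drew 47 reads over the hypoxia libraries and 30 over the normoxia libraries. Its level had a lowest value of 15.2, a median of 18.1 and a highest value of 22.3 CPM in hypoxia, against 4.75, 7.77 and 30.4 CPM in normoxia. All 6 hypoxia libraries lay above 5 of the 6 normoxia libraries, and the exception was the normoxia library of number 16, with 13 reads and the highest value of the 12. BMP2 averaged 18.2 ± 2.48 CPM in hypoxia and 11.04 ± 9.83 CPM in normoxia (SD, n = 6 each).

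BMP2 was below the count filter. When every gene with a read was fitted, its log2 fold change was 0.65 ± 0.427 (SE), with a 95% interval of -0.22 to 1.52 (edgeR unadjusted p = 0.138, adjusted p = 1.00), and 0.78 ± 0.414 with the block (edgeR unadjusted p = 0.0606, adjusted p = 1.00). Without the normoxia library of number 16 it was 1.21 ± 0.437 (edgeR adjusted p = 0.987). Within numbers the hypoxia level was 4.70 times the normoxia level for 110, 3.98 times for 21, 3.19 times for 33, 1.52 times for 49, 1.51 times for 4 and 0.61 times for 16. These ratios rest on 1 to 13 reads per library.

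BMP4, a ligand of the same subgroup that also steers stem cells towards bone or fat, had a lowest value of 12.4, a median of 26.7 and a highest value of 46.9 CPM in hypoxia, against 4.83, 29.1 and 46.8 CPM in normoxia. The highest values of both groups came from number 33 and were nearly equal, and the lowest of all was the normoxia library of number 21, with 1 read. BMP4 averaged 28.2 ± 11.7 CPM in hypoxia and 29.5 ± 14.7 CPM in normoxia (SD, n = 6 each). Its log2 fold change was -0.10 ± 0.349 (SE), a ratio of 0.93 with a 95% interval of 0.56 to 1.54 (edgeR adjusted p = 1.00). Leaving out 1 library turned the sign in 3 cases, to 0.042 without hypoxia 16, to 0.048 without normoxia 33 and to 0.028 without normoxia 4. The value was 0.042 ± 0.494 within lane 7 and -0.24 ± 0.526 within lane 8.

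BMP6, a ligand best known for bone growth and for control of iron through hepcidin, drew 7 reads over the hypoxia libraries and 6 over the normoxia libraries. Hypoxia libraries 16 and 4 and normoxia libraries 21, 33 and 49 had 0 reads, and the largest count was 3. A count of 0 allows up to 3 reads, or between 5.44 CPM in hypoxia 4 and 14.5 CPM in normoxia 21, for counting error only. The libraries with reads had 2.17 to 7.12 CPM, so the limits overlap or exceed those levels. A difference between hypoxia and normoxia at BMP6 was therefore not detectable at this depth, and its fitted log2 fold change of 0.20 ± 0.828 (SE) turned negative without hypoxia 110 (-0.031), hypoxia 33 (-0.22) or normoxia 49 (-0.072).

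BMPR1A and BMPR1B are the type I receptors of BMP2 and BMP4, the kinases that phosphorylate the SMADs, and BMPR2 is the type II receptor that activates them. BMPR1A had a lowest value of 49.4, a median of 52.6 and a highest value of 68.3 CPM in hypoxia, against 25.7, 54.0 and 77.3 CPM in normoxia. The hypoxia libraries sat inside the normoxia range, whose lowest library was number 16 and highest number 21. BMPR1A averaged 56.6 ± 7.78 CPM in hypoxia and 52.7 ± 18.3 CPM in normoxia (SD, n = 6 each). The log2 fold change was 0.13 ± 0.262 (SE), a ratio of 1.10 with a 95% interval of 0.75 to 1.598 (edgeR adjusted p = 1.00). The hypoxia level was the higher in 4 of 6 numbers, and the log2 fold change was 0.24 ± 0.359 within lane 7 and 0.0016 ± 0.470 within lane 8. BMPR1A overlaps MMRN2 in the same RefSeq table.

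BMPR1B was the most deeply read of the 10 genes, with 249 to 643 reads per library, and so the one with the smallest counting error. Its level had a lowest value of 711, a median of 940.1 and a highest value of 1062 CPM in hypoxia, against 720, 1017 and 1410 CPM in normoxia. The normoxia libraries of numbers 33 and 21 stood above every other library, and the rest of both groups shared 1 range. BMPR1B averaged 913 ± 147 CPM in hypoxia and 1049 ± 285 CPM in normoxia (SD, n = 6 each). The log2 fold change was -0.20 ± 0.200 (SE), a ratio of 0.87 with a 95% interval of 0.65 to 1.16 (edgeR adjusted p = 1.00).

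Within numbers, BMPR1B was split into a pair with a gap and 4 without. The hypoxia level was 0.64 times the normoxia level for number 33 and 0.73 times for number 21, and 1.07, 1.01, 0.99 and 0.99 times for numbers 4, 110, 16 and 49. Without the normoxia library of number 33 the log2 fold change was -0.07. It was -0.29 ± 0.240 within lane 7, which holds numbers 33 and 21, and 0.10 ± 0.391 within lane 8.

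BMPR2 had a lowest value of 18.5, a median of 28.8 and a highest value of 41.2 CPM in hypoxia, against 24.7, 33.0 and 43.5 CPM in normoxia. The 2 groups overlapped over most of their length, and both highest values came from number 21. BMPR2 averaged 29.0 ± 7.48 CPM in hypoxia and 33.7 ± 6.47 CPM in normoxia (SD, n = 6 each). The fold change was -0.18 ± 0.271 (SE) on the log2 scale, a ratio of 0.88 with a 95% interval of 0.60 to 1.30 (edgeR adjusted p = 1.00). It was -0.19 ± 0.363 within lane 7 and -0.12 ± 0.549 within lane 8. With 6 to 19 reads per library its coefficient of variation over all 12 libraries, 22.7%, was below the 27.5% that counting alone gives at its mean.

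**Figure D2:**
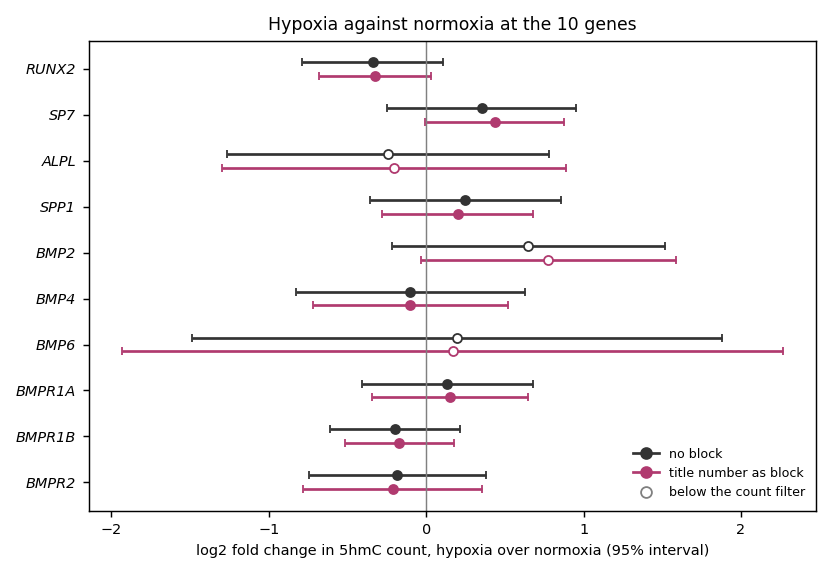
Log2 fold change of the 5hmC count, hypoxia over normoxia, with 95% intervals (horizontal axis) for the 10 genes, without the block (black) and with the title number as a block (red). Open circles are ALPL, BMP2 and BMP6, which were below the count filter and come from the fit of every gene with a read. Every interval includes 0, and the 7 filled pairs stay within -0.83 and 0.95.

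Of the 7 tested genes, 3 had a positive log2 fold change (SP7, SPP1 and BMPR1A) and 4 a negative one (RUNX2, BMP4, BMPR1B and BMPR2), with a median of -0.10. Over all tested genes the median was -0.04, with 43.4% positive and 56.6% negative, or 46.6% and 53.4% with the block. With library size in place of TMM the majority was positive, 51.2% with a median of 0.0077, and 54.7% with a median of 0.029 in the blocked fit, while the 7 genes kept their signs. Part of the spread between libraries is counting error, which is large where reads are few. With the squared counting value taken off the squared coefficient of variation over the 12 libraries, 38.1% remained at SPP1, 34.6% at BMP4, 31.9% at SP7, 26.4% at RUNX2, 22.7% at BMPR1B and 13.6% at BMPR1A. These are descriptions without an error, and at BMPR2 nothing remained.

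**Figure D3:**
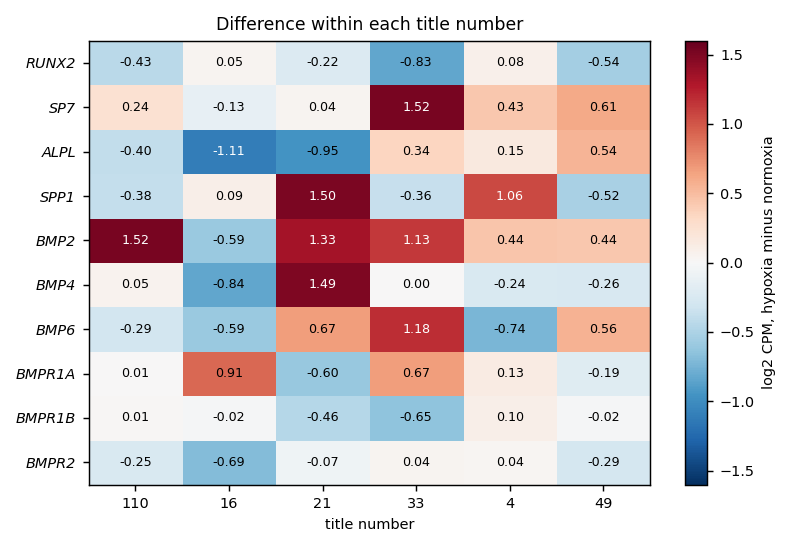
Difference in log2 CPM (prior count of 2), hypoxia minus normoxia, within each title number (columns) for the 10 genes (rows); red is higher in hypoxia and blue lower. No gene has the same sign in all 6 columns, and the largest difference at SP7 (1.52) lies in number 33, while those at SPP1 (1.503) and BMP4 (1.49) lie in number 21.

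None of the 10 genes had the same direction in all 6 numbers, which 1.68% of tested genes had with hypoxia higher and 2.59% with hypoxia lower. SP7 and BMP2 came nearest, each higher in hypoxia in 5 of 6. Number 16 was the exception for both, at -0.13 and -0.59 on the log2 CPM scale. Number 21, whose normoxia library was the shallowest, gave differences of 1.503 at SPP1, 1.49 at BMP4 and 1.33 at BMP2, on normoxia counts of 8, 1 and 1 reads.

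Among the 21 pairs of tested genes, RUNX2 and BMPR1B varied most alike across libraries. Pearson's r was 0.86 and Spearman's rho 0.78 for log2 CPM over 12 libraries. This is a description: the pair was singled out as the highest of 21, and the 12 points share a scaling, and the libraries of 1 title number are not independent. The value was 0.81 within the hypoxia libraries, 0.88 within the normoxia libraries, and 0.90 within the 8 libraries of lane 7. Without the 2 libraries farthest from the median of RUNX2, normoxia 33 and hypoxia 49, Pearson's r was 0.74. RUNX2 and SP7 had the lowest value of the 21, with r at -0.59 and rho at -0.38 over the 12 libraries. Pearson's r was -0.38 without the same 2 libraries, -0.81 within the 8 libraries of lane 7, and 0.29 within the hypoxia libraries and -0.75 within the normoxia libraries, so the value differed in sign between the groups.

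**Figure D4:**
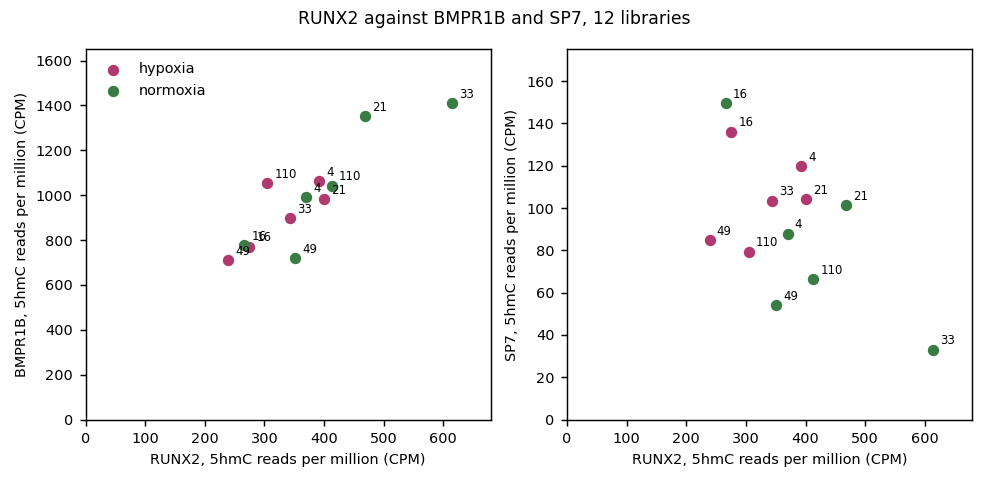
RUNX2 5hmC level (horizontal axes, CPM) against BMPR1B (left) and SP7 (right) in each library, labelled with its title number; hypoxia in purple and normoxia in green. BMPR1B is highest where RUNX2 is highest, in the normoxia libraries of numbers 33 and 21, and SP7 is lowest at 33.0 CPM in normoxia 33.

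Among 11867 other tested genes, those most like each gene in log2 CPM over the 12 libraries were PLD5 for RUNX2 (Pearson's r = 0.92), LOC106506249 for SP7 (0.90), LAT2 for SPP1 (0.93), GAPDH for BMP4 (0.97), DNAJA1 for BMPR1A (0.91), CUBN for BMPR1B (0.95) and NODAL for BMPR2 (0.90). Each is the highest of that many values over 12 points, and with few reads at BMP4 and BMPR2 it is given as a description only.

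The rest of the pathway was counted from lists by gene function, and none of its genes was called in either fit, where 0% and 0.0337% of all tested genes were. Of 11 further BMP-type ligand genes 3 had enough reads, with a median log2 fold change of 0.10, against -0.04 for all tested genes. BMP7, a ligand of kidney and bone, had 59.8 ± 34.7 CPM in hypoxia and 73.9 ± 50.2 CPM in normoxia (SD, n = 6 each), for -0.30 ± 0.397 (SE) in log2 fold change. BMP10, a ligand of the heart, stood at 0.10 ± 0.302.

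Of 11 further receptor and co-receptor genes 10 were in the tables and 8 were tested, 2 positive and 6 negative in log2 fold change (median -0.24). TGFBR3, the co-receptor betaglycan, had 90.3 ± 31.3 CPM in hypoxia and 124 ± 62.6 CPM in normoxia, a log2 fold change of -0.45 ± 0.317. RGMA, a BMP co-receptor of the repulsive guidance family, had 31.2 ± 7.605 CPM in hypoxia and 40.4 ± 8.37 CPM in normoxia, and was lower in hypoxia in 6 of 6 numbers (-0.37 ± 0.266). ACVR1, another type I receptor, stood at -0.21 ± 0.247. The type II receptors ACVR2B and ACVR2A stood at -0.27 ± 0.249 and -0.07 ± 0.321. The 2 positive genes were ENG at 0.23 ± 0.312 and NEO1 at 0.19 ± 0.230.

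Of 16 genes of secreted BMP antagonists and related binders 6 were tested, and the log2 fold changes of all 6 were negative (median -0.42). FST, encoding follistatin, had 22.1 ± 8.38 CPM in hypoxia and 33.5 ± 9.39 CPM in normoxia, a log2 fold change of -0.60 ± 0.308 (SE), on 4 to 27 reads. TWSG1, twisted gastrulation, had 19.4 ± 6.37 CPM in hypoxia and 27.4 ± 8.27 CPM in normoxia (-0.49 ± 0.309), each lower in hypoxia in 5 of 6 numbers. BMPER stood at -0.42 ± 0.297, FSTL1 at -0.41 ± 0.314, CRIM1 at -0.26 ± 0.233 and CHRDL1 at -0.11 ± 0.254. The best known antagonist, NOG (noggin), had 0 to 3 reads per library and was not tested. No antagonist reached an unadjusted p under 0.05 in either fit.

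Of 12 genes of SMADs and their regulators 11 were tested, 1 positive and 10 negative in log2 fold change (median -0.24), or 2 and 9 in the blocked fit. With library size in place of TMM 3 were positive and 8 negative, and 4 and 7 with the block. TOB2, an antiproliferative gene, had 60.4 ± 15.4 CPM in hypoxia and 92.2 ± 30.1 CPM in normoxia, lower in hypoxia in 6 of 6 numbers, with a log2 fold change of -0.63 ± 0.268 (edgeR unadjusted p = 0.029, adjusted p = 1.00). Its paralogue TOB1, known in mouse as a brake on BMP signalling in osteoblasts, stood at -0.74 ± 0.358 on 1 to 29 reads. SMURF2, a ubiquitin ligase of the SMAD pathway, had 98.3 ± 30.6 CPM in hypoxia and 144 ± 58.6 CPM in normoxia (-0.55 ± 0.285), also lower in 6 of 6 numbers. SMAD1, which carries the BMP signal, stood at -0.37 ± 0.336 and SMAD5 at -0.02 ± 0.255. An unadjusted p under 0.05 was reached by TOB2 alone of the 11 without the block, and by 3 of the 11, all lower in hypoxia, in the blocked fit, where 4.49% of all tested genes were lower at that p. In the blocked fit edgeR's unadjusted p was 0.0064 for TOB2 (adjusted p = 0.535), 0.0093 for SMURF2 (adjusted p = 0.542) and 0.0235 for TOB1 (adjusted p = 0.646).

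**Figure D5:**
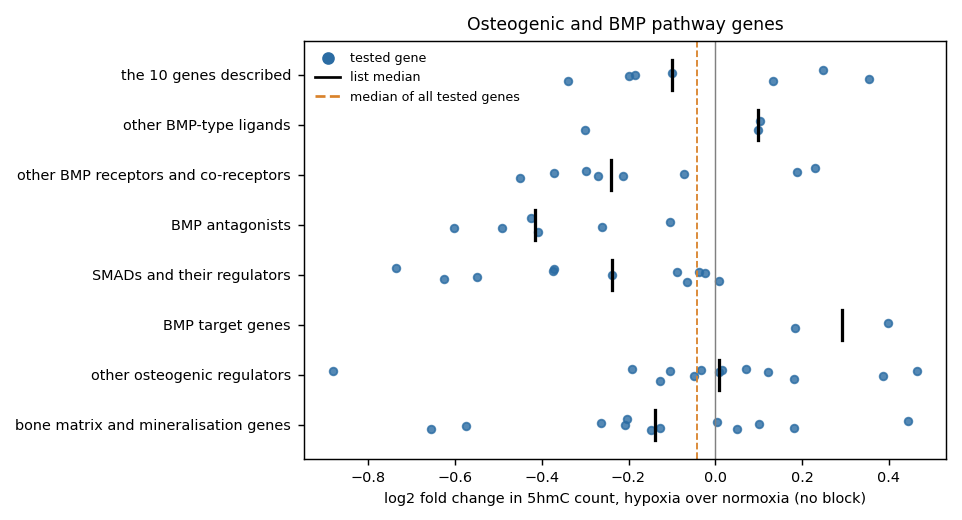
Log2 fold change of the 5hmC count, hypoxia over normoxia, without the block (horizontal axis), for each tested gene of the 10 described and of 7 further lists. Black bars are list medians and the dashed line is the median of all tested genes, -0.04; the 6 antagonists lie between -0.60 and -0.11.

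Most BMP target genes had too few reads: of 12 on the list 2 were tested, and ID1, ID2, ID3 and ID4 had 0 to 8 reads per library. JUNB, an immediate-early transcription factor gene, had 247 ± 55.6 CPM in hypoxia and 187 ± 59.7 CPM in normoxia (SD, n = 6 each), for 0.40 ± 0.227 (SE) in log2 fold change, and was higher in hypoxia in 5 of 6 numbers. GATA2, a blood and endothelial transcription factor gene, stood at 0.18 ± 0.282. Of 20 further osteogenic regulators 13 were tested, 7 with a positive and 6 with a negative value (median 0.01), or 9 and 4 with library size in place of TMM. MSX2, a homeobox factor induced by BMPs, had 28.4 ± 14.4 CPM in hypoxia and 57.1 ± 57.2 CPM in normoxia, where 1 library reached 169 CPM (-0.88 ± 0.479). DLX6, a homeobox factor of the skeleton, had 36.5 ± 11.3 CPM in hypoxia and 26.3 ± 9.03 CPM in normoxia (0.47 ± 0.312). The runt relatives of RUNX2, RUNX1 and RUNX3, stood at 0.02 ± 0.204 and 0.12 ± 0.284. In the blocked fit edgeR's unadjusted p was 0.0471 for JUNB (adjusted p = 0.70) and 0.0382 for MSX2 (adjusted p = 0.689).

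Of 23 bone matrix and mineralisation genes 12 were tested, 5 positive and 7 negative (median log2 fold change -0.14). SLC20A1, a phosphate transporter, had 38.4 ± 9.68 CPM in hypoxia and 60.7 ± 26.3 CPM in normoxia, a log2 fold change of -0.66 ± 0.3005 (SE; edgeR unadjusted p = 0.0402, adjusted p = 1.00). OMD, encoding osteomodulin, had 35.3 ± 12.9 CPM in hypoxia and 53.9 ± 21.9 CPM in normoxia (-0.57 ± 0.323). With the block edgeR's unadjusted p was 0.026 for SLC20A1 (adjusted p = 0.651) and 0.0437 for OMD (adjusted p = 0.70). The collagen genes of bone stood close to 0, COL1A1 at -0.15 ± 0.224 and COL1A2 at 0.0041 ± 0.244. BGLAP, encoding osteocalcin, had 0 to 2 reads per library.

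Marker genes of the labelled and of other cell types were counted in the same way, and their part in the values above was not tested. The summed level of 6 stromal surface markers ranged from 521 to 738 CPM in hypoxia and from 522 to 918 CPM in normoxia, and 1 of the 6 tested had a positive log2 fold change. CD44 stood at -0.24 ± 0.238 and PDGFRB at -0.39 ± 0.347, and the positive one was ENG at 0.23 ± 0.312. The summed level of 8 adipocyte markers ranged from 289 to 513 CPM in hypoxia and from 200 to 353 CPM in normoxia. Of 2 tested 1 was positive, ADIPOQ at 0.60 ± 0.262, and PPARG stood at -0.05 ± 0.262. ADIPOQ was higher in hypoxia in 5 of 6 numbers. Its unadjusted p by edgeR was 0.0314 without the block and 0.0046 with it (adjusted p = 0.509 with the block). Of all tested genes 0.918% and 2.6% were higher at an unadjusted p under 0.05 in these 2 fits. Endothelial markers summed to 472 to 641 CPM in hypoxia and 347 to 604 CPM in normoxia. A positive value was found at 4 of 6 tested, with PECAM1 at 0.26 ± 0.226 and CDH5 at 0.40 ± 0.307. TIE1 at -0.07 ± 0.275 and TEK at -0.01 ± 0.273 were negative, and CLDN5 had 0 reads in all libraries. Leukocyte markers summed to 624 to 780 CPM in hypoxia and 499 to 874 CPM in normoxia. Of the 6 tested 4 were positive, with IKZF1 at 0.40 ± 0.257, PTPRC at 0.37 ± 0.263 and SPI1 at 0.50 ± 0.424. The 2 with a negative value were CD68 at -0.19 ± 0.213 and CD3E at -0.06 ± 0.319. With the block 2 of the 6 were higher at an unadjusted p under 0.05, where 2.6% of all tested genes were. For these edgeR's unadjusted p was 0.0425 at IKZF1 (adjusted p = 0.697) and 0.0415 at SPI1 (adjusted p = 0.696). Epithelial markers summed to 121 to 198 CPM in hypoxia and 110 to 203 CPM in normoxia, with 1 of 2 tested positive, CDH1 at 0.27 ± 0.239 and ESRP2 at -0.17 ± 0.333. CDH1 was higher in hypoxia in 6 of 6 numbers, as were 1.68% of all tested genes. Marker genes of each type thus carried 5hmC reads, which does not show the presence of those cells, since the reads come from DNA that every cell has.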

How the data were processed

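The authors deposited raw HTSeq read counts per gene symbol for 12 libraries of 5hmC-enriched DNA; per the submitters' processing notes Bowtie2, Picard, HTSeq, MACS2 and edgeR were used. Their versions, the genome build, annotation, HTSeq feature type and strand setting are not given in any source used. Whether counts cover exons or whole genes is thus not stated. Genes took only 1.69 to 2.89% of reads, and signal in other parts of a gene, such as introns, may not have been counted. The peak lists and 1 input sample, which has no group, were not analysed here. Rows naming no gene held 88.0 to 93.0% of reads outside features and 4.12 to 10.3% of low alignment quality, and stayed out of library sizes and tests. Of 27339 gene rows 26838, and all 10 genes described, matched RefSeq's Sscrofa11.1 gene table, used only for names and neighbours.

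The deposited counts were filtered (filterByExpr, at least 10 reads in enough libraries and 15 in all), scaled by TMM and fitted with glmQLFit and glmQLFTest of edgeR 4.0.16 (R 4.3.3). P-values were adjusted over 11868 genes (Benjamini-Hochberg, threshold 0.05), and the fit was checked on simulated counts. Standard errors were derived from the log2 fold change and F. DESeq2 1.42.0, other scalings, lanes (read from the names of the deposited tables), the block and left-out libraries were alternatives. Intervals from 0 counts cover counting error only. The genes named from each list were the 2 with the smallest p; the rule also named all 10 genes and the most alike gene for each. ACVR1, ACVR2A, ACVR2B, BMPER, FSTL1, CRIM1, CHRDL1, NOG, SMURF2, SMAD1, SMAD5, the ID genes, RUNX1, RUNX3, COL1A1, COL1A2, BGLAP, CLDN5 and SPI1 were chosen after their values were seen. So were CD3E, CD68, ENG, NEO1, TEK and TIE1. The 10 genes and all lists were chosen with earlier results of these data known.

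Libraries sharing a title number deviated together from their group means (Pearson's r across genes of 0.136 to 0.478, all above 0.1). The numbers were therefore taken as pairs, from the titles, in the blocked fits and the ratios within numbers. The lowest value was that of number 4, and 9 of the 12 libraries were best matched by their own number. Both libraries of each number also shared a lane, and the part of the lane in this likeness was not tested. Fold changes given without naming the block or another setting come from the fit without it, which leaves this pairing out. The spread between libraries beyond counting, edgeR's biological coefficient of variation, was 0.305 in that fit and 0.210 with the block. All 66 pairs of libraries differed by more than sampling noise (lowest chi-square over its degrees of freedom 1.34).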

Additional observations from a re-analysis of the deposited data

Results flagged for a closer look

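The level of each of the 10 genes was examined in each group of 6 for a library standing apart, by the gap to its nearest neighbour over the range of the group against Dixon's critical value; 20 groups were examined, and chance alone marks about 1 in 20. Both libraries that stood apart were the normoxia library of number 16. At BMP2 it had 30.4 CPM, where the next highest normoxia library had 10.8 CPM and the lowest 4.75 CPM (gap over range 0.764). At ALPL it had 18.7 CPM, where the next highest had 9.66 CPM and the lowest 4.75 CPM (gap over range 0.648). These values rest on 13 and 8 reads.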

How the results depend on the processing

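None of the 10 genes was called under any of the 29 alternatives for the tested genes or the 14 for those under the count filter. RUNX2 (log2 fold change of -0.42 to -0.15), SP7 (0.21 to 0.64), BMPR1A (0.0016 to 0.29) and BMPR2 (-0.29 to -0.08) kept their sign under all 29. The number of all genes called, 0 without the block, was 4 with the replicate block, 4 with the replicate block and library size alone, 9 with the replicate block and no count filter, and with the replicate block and 1 number left out 3 without 16, 12 without 21, 1 without 49 and 0 without 110, 33 or 4. Leaving out single libraries without the block gave 0. With the block the 7 genes had the same signs and no call. In the fits without 1 library SPP1 ranged from -0.031 to 0.37 and BMP4 from -0.31 to 0.048. In the fits with the replicate block SPP1 was -0.040 without number 4 and BMP4 was 0.064 without number 16. Within lane 7 BMP4 was 0.042, and within lane 8 BMPR1B was 0.10. Without the count filter and 1 library, ALPL ranged from -0.42 to 0.10, BMP6 from -0.22 to 0.86 (negative without hypoxia 33, normoxia 49 at -0.072 or hypoxia 110 at -0.031) and BMP2 from 0.50 to 1.21. The cause of these changes of sign was not tested. Among the 7 tested genes, SP7 came under an unadjusted p of 0.05 without normoxia 16 (edgeR adjusted p = 0.921). With the replicate block SP7 did so without number 16 (edgeR adjusted p = 0.643), without 21 (adjusted p = 0.415) or with library size alone (adjusted p = 0.689). SP7 also did so with the block and no count filter (edgeR adjusted p = 1.00). RUNX2 did so with the block without number 4 (edgeR adjusted p = 0.366). This listing leaves out the fits without both the count filter and 1 library. In those fits BMP2 reached 1.21 ± 0.437 (SE) without normoxia 16. The blocked fit with no count filter, and the fits without both the filter and 1 library, were chosen after seeing the data. The other alternatives were planned. Library size as the only scaling gave a median log2 fold change of 0.0077 for all tested genes, against -0.04 with TMM, and changed no sign among the 7 genes. Depth limits ALPL, BMP2 and BMP6 most, with 0 to 13 reads per library.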
